A study of Mus musculus with 36 samples.

Results

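The genes described here are 10 members of the Notch pathway: the receptors Notch1, Notch2, Notch3 and Notch4, the ligands Jag1, Jag2, Dll1 and Dll4, and the target genes Hes1 and Hey1. They were found by gene name on the arrays, where 14 of 41174 probes and 10 of 27597 genes carry these names. The family was chosen by measured values: Notch4 signal was high in a culture of regulatory macrophages, called Mreg, and low there with lipopolysaccharide (LPS). For that reason every value that rests on Mreg or Mreg_+LPS arrays is given as a description, without a test, and tests are kept to comparisons of the other 10 groups.

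Notch receptors are membrane proteins that are cut when a Jagged or Delta-like ligand on a neighbouring cell binds them, first by an ADAM protease and then by the γ-secretase complex. The freed intracellular part enters the nucleus, joins the DNA-binding protein RBPJ and Mastermind coactivators, and switches on genes such as those of the Hes and Hey families, which are themselves transcriptional repressors. In myeloid cells the pathway is known for its part in monocyte and dendritic cell fate and in the macrophage response to microbial products. Notch4 is best known from blood vessel endothelium, and Jag1 is a ligand that macrophages make when Toll-like receptors are engaged.

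RNA of mouse cells was measured on 36 single-colour arrays in 12 groups of 3, and all cultures except one began from bone marrow monocytes sorted as CD11b+ Ly6C+ Ly6G-. Monocytes is the group of those sorted cells without culture. MΦ_M0, MΦ_IFN-γ, MΦ_M1, MΦ_M2a, MΦ_M2b and MΦ_M2c were cultured for 7 days in 10% fetal calf serum and 20 ng/ml M-CSF, the macrophage growth factor. On day 6, MΦ_M0 received nothing, MΦ_IFN-γ 25 ng/ml interferon-γ (IFN-γ), MΦ_M1 the same IFN-γ plus 100 µg/ml LPS (dose and unit as in the labels, not checked against another source), MΦ_M2a 20 ng/ml IL-4 and MΦ_M2c dexamethasone, a glucocorticoid, each for 24 h. MΦ_M2b was grown on dishes coated with human immunoglobulin and also received 25 ng/ml IFN-γ. Mo-DC, cells cultured with 20 ng/ml GM-CSF and 20 ng/ml IL-4, received 25 ng/ml IFN-γ as well. The Mreg culture held 10% human AB serum with 10% fetal calf serum and less M-CSF, 5 ng/ml. Mreg received 25 ng/ml IFN-γ, Mreg_no IFN-γ none, and Mreg_+LPS the IFN-γ with 100 µg/ml LPS. Mreg_unpurified was cultured and stimulated like Mreg, but from adherent mononuclear cells of bone marrow, spleen and blood. The Mreg culture therefore differs from MΦ_M0 and MΦ_IFN-γ in serum and in the M-CSF dose together. Mreg_unpurified differs from them in its starting cells as well, and these differences cannot be told apart. The labels number the arrays of each group 1 to 3 as a series and do not say whether these are separate animals, so p-values measure the spread between these samples, which may be technical.

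The sequences below are those the results turn on: the start of Notch4, the gene by which the family was chosen, the probe that reads Hes1, and the probes nearest the 5′ end among those that read Jag1 and Notch2, where probes of 1 gene are compared. The first is RefSeq's window around the Notch4 start (GRCm38.p6, chr17:34564045-34564304, plus strand), 250 bases before the start and 10 after it, with motif matches in capitals.
Notch4 start: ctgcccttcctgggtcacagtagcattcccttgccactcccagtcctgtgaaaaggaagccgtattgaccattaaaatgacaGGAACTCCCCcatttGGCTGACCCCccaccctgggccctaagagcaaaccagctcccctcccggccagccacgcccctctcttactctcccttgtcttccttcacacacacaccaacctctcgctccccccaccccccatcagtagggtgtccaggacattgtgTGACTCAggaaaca
The next 3 are array probes, positioned on mouse build mm8: Hes1 at chr16:29985644-29985939 on the plus strand, whose 60 bases are spread over 296 bases of genome, Jag1 at chr2:136774647-136774706 on the minus strand, and Notch2 at chr3:98232687-98232746 on the plus strand.
Hes1 probe: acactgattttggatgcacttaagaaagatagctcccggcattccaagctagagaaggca
Jag1 probe: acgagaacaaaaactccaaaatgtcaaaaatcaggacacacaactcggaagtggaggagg
Notch2 probe: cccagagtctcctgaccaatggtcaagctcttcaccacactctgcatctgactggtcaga
They start at bases 408, 3489 and 7420 of their transcripts by the array's annotation, and each has at least 1 reading frame without a stop codon; no gene annotation of this build was used here to place them in exons.

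In the Notch4 window the capitals mark, from left to right, 2 matches to a loose NF-kB pattern (GGG, any 5 bases, CC) at positions -168 and -153 and 1 match to the AP-1 pattern TGANTCA at position -4, across the start itself; both strands were searched over 300 bases, 250 before each start and 50 after. RefSeq's table held such windows for 8 of the 10 members, with 2 windows for Dll1. The AP-1 pattern was found in 7.8% of all 32851 windows of this length and in 2 of the 8 members, Notch4 and Dll1. The NF-kB pattern was found in 50.8% of all windows and in 7 of the 8 members, all but Jag2. TGGGAA, the core letters bound by RBPJ, was found in 25.6% of all windows and in none of the 8. The GAS pattern TTCNNNGAA, also searched, was found in 8.3% of all windows and in 1 of the 8 members, Notch3. Motifs that overlap were counted separately, and a match or its absence describes these letters in this window only.

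Values below are log2 signals relative to the 75th percentile of their array, so 0 is the brightness of the probe at that percentile, each unit is a doubling, and a difference of 2 group means is a log2 fold change. A probe counts as measured on an array when the scanner software called it well above background, and 26478 probes measured on at least 3 arrays were kept, with the brightest probe standing for a gene. Between 50.1% and 57.6% of the probes of an array were well above background, and the 75th percentile itself lay between 320 and 648 signal units. On Mreg_+LPS arrays it was 320 to 343. No array was a copy of another. All 7 macrophage markers (Csf1r, Adgre1, Cd68, Mertk, Fcgr1, Lyz2 and Itgam) were well above background on all 3 arrays of every cultured group, and 6 of the 7 on all 3 Monocytes arrays. Sums over some lists of marker genes of other cells were higher in Monocytes than in MΦ_M0. The neutrophil list was Ly6g, Mpo, Elane, Ngp, Camp, S100a8 and S100a9, of which 6 were on the array. Their summed level relative to the 75th percentile was 2790 to 3400 against 3.21 to 4.37. All 6 were measured on every Monocytes array. Whether the sorted monocytes carry these transcripts themselves was not tested. The sum of 5 B cell genes was 3.4 to 3.65 against 1.02 to 1.08, with Cd79a and Pax5 measured on no Monocytes array. Sums of stromal and of T and NK cell genes were also higher in Monocytes. Lower in Monocytes were the sums of dendritic genes (1.36 to 2.87 against 27.3 to 52.8) and of endothelial genes (3.93 to 6.46 against 7.64 to 9.58). Megakaryocyte and erythroid genes were lower there too (1.47 to 3.17 against 102 to 128). The part of such cells in the comparison of MΦ_M0 with Monocytes was not tested. Of the members, Notch1, Notch2 and Jag1 were measured on all 36 arrays, Notch4 on 34, Hey1 on 30, Dll4 on 9, Hes1 and Jag2 on 5 each, Notch3 on 2 and Dll1 on none. Notch3 and Dll1 did not pass the filter on dim probes, so 8 members were tested, and a member that passes through the 1 group where it is bright has to differ there.

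Notch4, a receptor of the family, was the member with the widest span, 6.38 log2 units between its highest and lowest group means. The 3 arrays of Mreg_unpurified read 1.79, 1.34 and 1.55, those of Mreg_no IFN-γ 2.04, -0.42 and 1.18, and those of Mreg 1.75, -0.30 and 1.00. Every one of these 9 arrays lay above every array of the other 9 groups. The next groups were MΦ_M2c at -1.78, -1.73 and -2.06 and MΦ_M2b at -2.43, -1.72 and -2.00, whose ranges overlapped each other but no other group. Monocytes (-3.54, -3.79 and -3.44), MΦ_M0 (-3.26, -3.73 and -3.94) and MΦ_IFN-γ (-3.76, -3.59 and -3.68) formed 1 overlapping set. MΦ_M2a at -2.77, -4.53 and -4.86, Mreg_+LPS at -4.44, -4.51 and -5.10, MΦ_M1 at -4.38, -5.31 and -4.53 and Mo-DC at -4.61, -5.05 and -4.81 came last, each overlapping the next in order. Array 1 of MΦ_M2a stood apart from its group, and the second array of both Mreg and Mreg_no IFN-γ, which share a slide, was the lowest of its group.

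**Figure D1:**
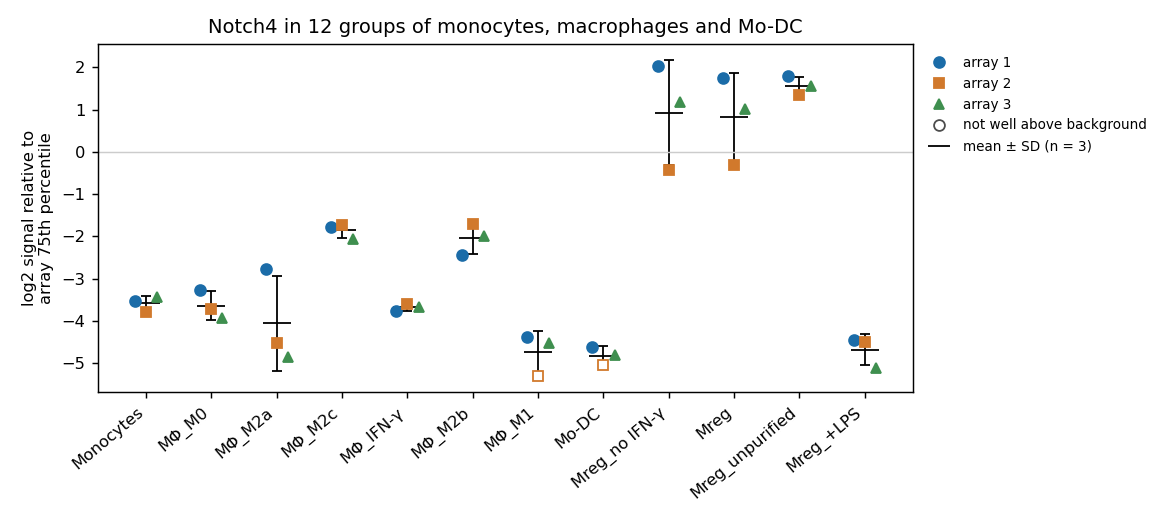
Notch4 signal on each of the 36 arrays (vertical axis, log2 relative to the array's 75th percentile) in the 12 groups, with the series number as the symbol, open symbols for arrays not well above background, and the mean ± SD of 3 arrays. The 9 arrays of Mreg, Mreg_no IFN-γ and Mreg_unpurified sit between -0.42 and 2.04, above the arrays of all other groups, while Mreg_+LPS sits between -5.10 and -4.44.

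Notch4 was high in the Mreg culture also without IFN-γ: Mreg_no IFN-γ averaged 0.93 ± 1.25 (SD, n = 3) against -3.64 ± 0.35 in MΦ_M0, a difference of 4.58 ± 0.49 (SE), or 23.8-fold (adjusted p = 8.5e-08 over all genes, limma). Mreg_unpurified averaged 1.56 ± 0.23 against -3.68 ± 0.09 in MΦ_IFN-γ, a difference of 5.23 ± 0.49 or 37.6-fold (adjusted p = 8.9e-09). With another background correction (normexp with an offset of 50) these differences were 2.77 and 3.90, both past the threshold. Both comparisons use arrays that the choice of the family did not name, yet those arrays share the Mreg culture medium and its slides with Mreg, so they are not independent of it. Mreg_unpurified also began from other starting cells than MΦ_IFN-γ. Its summed level of stromal genes was 47.3 to 65.6 against 24.9 to 32.9 in MΦ_IFN-γ. Megakaryocyte and erythroid genes gave 77.2 to 445 against 30.4 to 40.7, and B cell genes 1.15 to 1.83 against 0.55 to 0.585. The dendritic sum was also higher, the monocyte and endothelial sums were lower, and the neutrophil and the T and NK cell sums overlapped. The part of such cells was not tested. In bulk RNA, more cells of a type and more RNA per cell cannot be told apart.

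Within the Mreg culture, the arrays with and without IFN-γ overlapped, and Mreg minus Mreg_no IFN-γ was -0.28, 0.12 and -0.18 on the 3 shared slides. LPS on top of IFN-γ came with a difference of -5.50 ± 0.49 (SE), 45.3-fold, between Mreg_+LPS and Mreg. On the 3 slides that difference was -6.19, -4.21 and -6.11, large on each one. Notch4 on the Mreg_+LPS arrays, at -4.44, -4.51 and -5.10, lay close to their lowest signals well above background, -4.80, -4.88 and -5.44. These 2 comparisons and the difference of 4.49 ± 0.49 between Mreg and MΦ_IFN-γ are descriptions, since they use arrays by which the family was chosen. With normexp the LPS difference was -2.95 and the difference from MΦ_IFN-γ 3.18.

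Outside the Mreg culture Notch4 was higher with dexamethasone, by 1.79 ± 0.49 (SE) or 3.46-fold in MΦ_M2c over MΦ_M0 (adjusted p = 0.0096), a call that was lost with the normexp correction (0.41, adjusted p = 0.42). Immunoglobulin coating gave a difference of 1.63 ± 0.49 in MΦ_M2b over MΦ_IFN-γ with no overlap of the groups, which missed the threshold (adjusted p = 0.062) and passed it with the series number as a block (adjusted p = 0.025). LPS on IFN-γ in M-CSF macrophages gave -1.06 ± 0.49, with MΦ_M1 measured on 2 of 3 arrays (adjusted p = 0.075, and 0.041 with the series number as a block). Mo-DC, also measured on 2 of 3 arrays, differed from MΦ_IFN-γ by -1.15 ± 0.49 (adjusted p = 0.057, and 0.0013 with the slide they share as a block). IFN-γ in M-CSF macrophages gave -0.03 ± 0.49, IL-4 -0.41 ± 0.49 and culture to MΦ_M0 -0.06 ± 0.49, all with overlapping groups.

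Because Notch4 is an endothelial receptor, a fixed list of 15 endothelial genes was read on the same arrays. Its summed level, relative to the 75th percentile, was 5.1 to 6.98 on Mreg arrays, 3.85 to 5.96 in Mreg_unpurified and 4.07 to 5.39 in Mreg_no IFN-γ, against 7.64 to 9.58 in MΦ_M0, up to 16.3 in MΦ_IFN-γ, 2.01 to 2.37 in Mreg_+LPS and 52.9 to 73.8 in Mo-DC. Vwf and Flt1, the brightest of the list there, carried most of that sum in the macrophage groups: Vwf averaged 2.74 in MΦ_M0, 0.72 in Mreg and -0.46 in Mreg_+LPS, and Flt1 3.36 in MΦ_IFN-γ, 1.88 in Mreg and -0.57 in Mreg_+LPS. Without these 2 genes, left out after their values were seen, the sum was 0.429 to 0.492 in Mreg, 0.537 to 0.734 in Mreg_unpurified, 0.518 to 0.782 in Mreg_no IFN-γ and 0.631 to 0.807 in Mreg_+LPS, against 0.406 to 0.687 in MΦ_M0 and 0.287 to 0.363 in MΦ_IFN-γ. Pecam1, an adhesion molecule, averaged -5.84 in MΦ_M0, -3.73 in MΦ_IFN-γ, -3.585 in Mreg and -2.08 in Mreg_+LPS. Tie1, Emcn and Sox17 were measured on no array of the 4 Mreg groups, and Cdh5, the endothelial cadherin, on 1 array each of Mreg, Mreg_unpurified and Mreg_+LPS and on none of Mreg_no IFN-γ, against all 3 of MΦ_IFN-γ. Of the list, 7 genes were measured on all 3 arrays of Mreg and of Mreg_unpurified, 8 of Mreg_no IFN-γ and Mreg_+LPS, 5 of MΦ_M0 and 6 of MΦ_IFN-γ. Nos3, endothelial nitric oxide synthase, did move with Notch4: it averaged -4.54 ± 0.14 (SD, n = 3) in Mreg, -4.28 ± 0.18 in Mreg_no IFN-γ and -4.81 ± 0.12 in Mreg_unpurified, measured on all 9 arrays, and was measured on no array of Mreg_+LPS, MΦ_M0, MΦ_IFN-γ, MΦ_M1, MΦ_M2a, MΦ_M2c or Mo-DC and on 2 of 3 of MΦ_M2b and Monocytes. Esam, an adhesion molecule of endothelium, was measured on all 12 arrays of the Mreg culture, Mreg_+LPS included, and on 1 of 3 arrays of MΦ_M0 and none of MΦ_IFN-γ. Vwf, Flt1, Pecam1, Nos3 and Esam were singled out after their values were seen, and the part of such cells in the Notch4 values was not tested.

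Correlation with Notch4 over the 12 group means was computed for 17606 genes, and those with clone or predicted names were passed over. The 5 best of the rest were Xpr1 (Pearson r = 0.916), Hao1 (0.904), Rad9b (0.899), Kcnab3 (0.897) and Ephb2 (0.891). The points are 12 group means that share arrays and scaling, and the values are a description. Xpr1, a phosphate exporter, moved over a far narrower range than Notch4, from 4.02 in Mreg to 3.03 in Mreg_+LPS and 3.30 in MΦ_IFN-γ. The other 4 were measured on no Mreg_+LPS array, so their correlations rest partly on values without order.

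Notch1, the best known of the receptors, was measured on all 36 arrays and its group means spanned 1.76 log2 units. It was highest in Monocytes at 1.1, 1.27 and 1.71 and lowest in MΦ_M0 at -0.33, -0.42 and -0.46, a difference of -1.76 ± 0.17 (SE) after culture (3.39-fold, adjusted p = 4.6e-10). In MΦ_IFN-γ it read 0.50, 0.35 and 0.11, above every MΦ_M0 array by 0.72 ± 0.17 (adjusted p = 0.0017). Dexamethasone came with a similar size of difference, with MΦ_M2c at 0.60, 0.36 and 0.32, 0.83 ± 0.17 above MΦ_M0 (adjusted p = 0.00057). IL-4 did not separate the groups (0.04 ± 0.17, adjusted p = 0.93), and LPS on IFN-γ gave 0.305 ± 0.165 (adjusted p = 0.13). Mreg_no IFN-γ exceeded MΦ_M0 by 0.49 ± 0.17 (adjusted p = 0.025). This call was lost when array 2 or 3 of MΦ_M0 or array 1 or 3 of Mreg_no IFN-γ was left out. Differences were then 0.44 to 0.48, with adjusted p up to 0.089. The call was also lost with normexp (0.374, adjusted p = 0.094) and with arrays of a single scan day (0.475, adjusted p = 0.1). A second probe gave the same directions, with -1.72 for culture (adjusted p = 1.4e-08 over all probes), 0.63 for IFN-γ (0.019), 0.73 for dexamethasone (0.0078) and, not past the threshold, 0.46 for Mreg_no IFN-γ (0.075). As a description, Notch1 was 0.60 higher in Mreg than in Mreg_no IFN-γ, at 0.63, 0.62 and 0.81, and differed by -0.48 with LPS, at 0.29, -0.20 and 0.52.

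Notch2 is read by 3 probes, all measured on every array, which lie at positions 7420, 9058 and 10129 of the transcript. The probe at 7420, called proximal, is the one printed above, and the brightest, which stands for the gene, is the most distal. In Monocytes the brightest probe read 3.11, 2.96 and 3.35 and in MΦ_M0 2.09, 2.20 and 1.79, a difference of -1.12 ± 0.19 with culture (SE; 2.17-fold, adjusted p = 1.1e-05). IFN-γ raised it by 0.94 ± 0.19 over MΦ_M0 (adjusted p = 0.00047), with MΦ_IFN-γ at 3.12, 3.08 and 2.70. Dexamethasone raised it by 0.93 ± 0.19 (adjusted p = 0.00074), with MΦ_M2c at 3.19, 2.95 and 2.73. The proximal and the middle probe moved the same way in these 3 comparisons: -0.62 and -1.02 for culture, 0.75 and 0.88 for IFN-γ, and 0.56 and 0.74 for dexamethasone, each past the threshold over all probes. Relative to MΦ_IFN-γ, the brightest probe differed by -0.70 ± 0.19 in Mo-DC (adjusted p = 0.0035), where the 3 arrays read 2.41, 2.27 and 2.13. Mreg_unpurified, at 2.36, 1.91 and 2.19, differed by -0.81 ± 0.19 (adjusted p = 0.0013), and there the middle probe missed the threshold (-0.40, adjusted p = 0.055 over all probes).

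The 3 Notch2 probes parted under LPS. In M-CSF macrophages the proximal probe rose by 0.53 ± 0.16 (SE; adjusted p = 0.0076 over all probes) and the middle probe by 0.91 ± 0.16 (adjusted p = 4.3e-05), while the distal probe differed by 0.08 ± 0.19 (adjusted p = 0.77). In the Mreg culture, as a description, the proximal and middle probes differed by 0.43 and 0.57 and the distal probe by -0.68. The direction of Notch2 under LPS therefore depends on the probe, and the mean of the 3 probes gave 0.11 in the Mreg culture. On the shared slides the distal probe was lower with LPS in all 3 Mreg pairs, at -0.74, -0.61 and -0.68.

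Notch3, the remaining receptor, was well above background on arrays 1 and 2 of Mo-DC, at -4.55 and -4.58, and on no other array. Its values in the other 11 groups lie under the limit of measurement and carry no order.

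**Figure D2:**
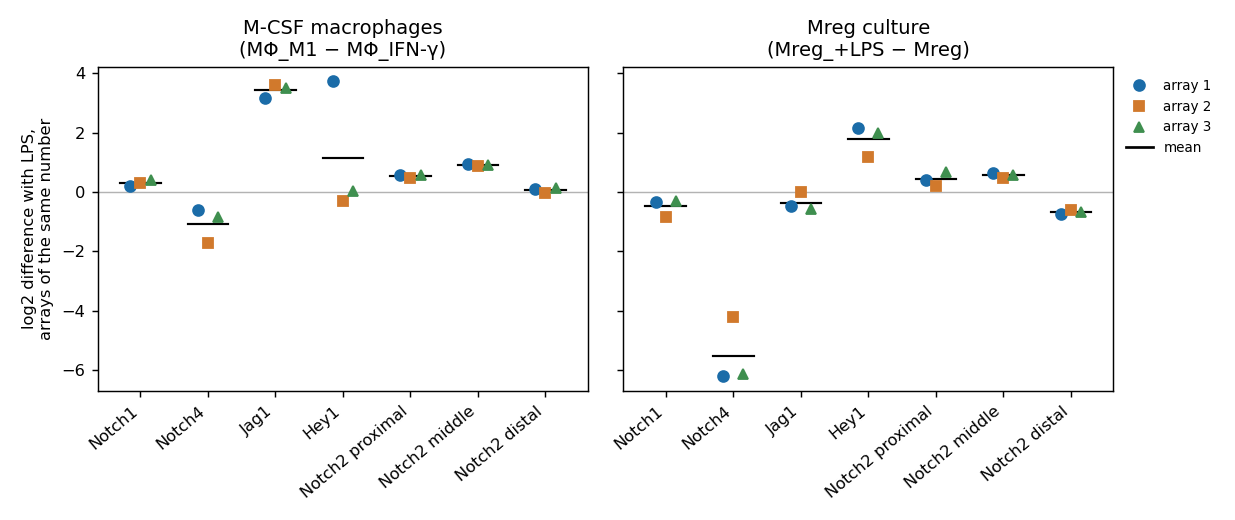
Difference with LPS between arrays of the same series number (vertical axis, log2) in M-CSF macrophages (left) and in the Mreg culture (right), with the mean as a bar, for 4 members and the 3 Notch2 probes, named proximal, middle and distal by their position in the transcript. Jag1 rose by 3.17 to 3.60 on the left and lay between -0.57 and -0.02 on the right, Notch4 lay below 0 in each pair, between -6.19 and -4.21 on the right and with a mean of -1.06 that missed the threshold on the left, and the distal Notch2 probe lay below the other Notch2 probes on both sides.

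Among the ligands, Jag1 was the member that responded most often: it passed the threshold in all 9 tested comparisons, higher in 7 and lower in 2. Its main probe, at chr2:136773138-136773197 (mm8, minus strand), was measured on all 36 arrays. The 3 arrays of Monocytes read -2.67, -2.47 and -2.46, and those of MΦ_M0 1.31, 1.09 and 0.76. Culture in M-CSF thus raised Jag1 by 3.59 ± 0.28 (SE; adjusted p = 1.2e-11).

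IFN-γ brought Jag1 back to -1.96, -2.12 and -2.45 in MΦ_IFN-γ, a difference of -3.23 ± 0.28 from MΦ_M0 or 9.38-fold (adjusted p = 1.5e-09). With LPS added, MΦ_M1 read 1.21, 1.47 and 1.06, a rise of 3.43 ± 0.28 or 10.7-fold over MΦ_IFN-γ (adjusted p = 9.3e-11). The MΦ_M1 and MΦ_M0 ranges overlapped. Immunoglobulin coating raised it by 2.18 ± 0.28 or 4.53-fold over IFN-γ alone (adjusted p = 3.9e-05), with MΦ_M2b at 0.26, -0.26 and 0.00. Mo-DC, at -0.99, -0.64 and -1.32, exceeded MΦ_IFN-γ by 1.19 ± 0.28 (adjusted p = 9e-04).

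Jag1 in MΦ_M2c, at 2.21, 2.16 and 1.70, was 0.97 ± 0.28 above MΦ_M0 (adjusted p = 0.013), and in MΦ_M2a, at 0.57, 0.13 and -0.23, it differed from MΦ_M0 by -0.89 ± 0.28 (adjusted p = 0.034). Neither call held in every leave-one-out fit. The dexamethasone call was lost without array 3 of MΦ_M0 or without array 1 or 2 of MΦ_M2c (differences of 0.83 to 0.90, adjusted p up to 0.074). The IL-4 call was lost without array 1 or 2 of MΦ_M0 or array 2 or 3 of MΦ_M2a (-0.70 to -0.88, adjusted p up to 0.15).

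Jag1 was highest of all groups in Mreg_no IFN-γ, at 3.24, 2.50 and 3.03, 1.87 ± 0.28 or 3.66-fold above MΦ_M0 (adjusted p = 9.4e-06). Mreg_unpurified, at 1.34, 1.43 and 0.19, was 3.16 ± 0.28 or 8.96-fold above MΦ_IFN-γ (adjusted p = 3.1e-09). As a description, Mreg with IFN-γ read 0.76, 1.1 and 1.33, a difference of -1.86 ± 0.28 from Mreg_no IFN-γ and of 3.24 ± 0.28 from MΦ_IFN-γ. Mreg_+LPS, at 0.29, 1.08 and 0.76, overlapped Mreg and differed from it by -0.35 ± 0.28. The IFN-γ step thus went with lower Jag1 in both media and LPS with higher Jag1 in M-CSF medium, whereas in Mreg the arrays with and without LPS overlapped.

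The second Jag1 probe, printed above, was measured on 10 arrays, among them all 3 of Mreg_no IFN-γ (-3.61, -4.01 and -3.48) and all 3 of MΦ_M2c (-4.55, -4.57 and -4.63). It was measured on no array of Monocytes or MΦ_IFN-γ. Against MΦ_M0, where 1 of 3 arrays was measured, it was higher with dexamethasone (1.23, adjusted p = 0.037 over all probes) and in Mreg_no IFN-γ (2.11, adjusted p = 3e-04), both the direction of the main probe. In the other 7 tested comparisons 1 or both groups had no measured array, so its values there are not given.

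The other ligands lay close to the limit of measurement. Jag2 was well above background on 2 of 3 Mo-DC arrays, which read -4.56, -4.14 and -5.34, and on 1 array each of Monocytes (-3.98), MΦ_IFN-γ (-5.27) and MΦ_M2c (-5.54). Its difference of 1.97 ± 0.49 between Mo-DC and MΦ_IFN-γ (adjusted p = 0.0016) had overlapping groups and was lost with the normexp correction (0.69, adjusted p = 0.11). Monocytes were called higher than MΦ_M0 (adjusted p = 1.9e-05), where the mean of the 3 Monocytes arrays, 1 of them measured, lay 1.56-fold above the limit of measurement on the MΦ_M0 arrays, the mean of the lowest signal well above background on each array; with normexp the difference was 0.09 the other way. The dexamethasone call (1.46 ± 0.49, adjusted p = 0.035) rested on 1 measured array, was lost without array 3 of MΦ_M2c (1.07, adjusted p = 0.21), array 1 of MΦ_M2c (1.22, adjusted p = 0.14), or array 2 or 3 of MΦ_M0 (1.49 and 1.25, adjusted p = 0.073 and 0.14), and turned to -0.50 with normexp. In the authors' deposited log2 values, fitted the same way, it was 1.29 and missed the threshold (adjusted p = 0.055).

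Dll4, the Delta-like ligand of vessel sprouting, was measured on 2 arrays each of Mreg (-5.05 and -5.43) and Mreg_+LPS (-4.76 and -4.70) and on 1 array each of MΦ_M0, MΦ_M2b, Mo-DC, Mreg_unpurified and Mreg_no IFN-γ. Its only call was Mo-DC over MΦ_IFN-γ (adjusted p = 0.034), where the mean of the 3 Mo-DC arrays, 1 of them measured, lay 1.26-fold above the limit of measurement on the MΦ_IFN-γ arrays. That call was lost without array 3 of Mo-DC (0.52, adjusted p = 0.26), array 1 of MΦ_IFN-γ (0.66, adjusted p = 0.18) or array 3 of MΦ_IFN-γ (0.99, adjusted p = 0.05), with normexp (0.50, adjusted p = 0.27) and with the authors' deposited log2 values (0.52, adjusted p = 0.19). Dll1, which is read by 10 spots per array, was measured on none of the 36 arrays.

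**Figure D3:**
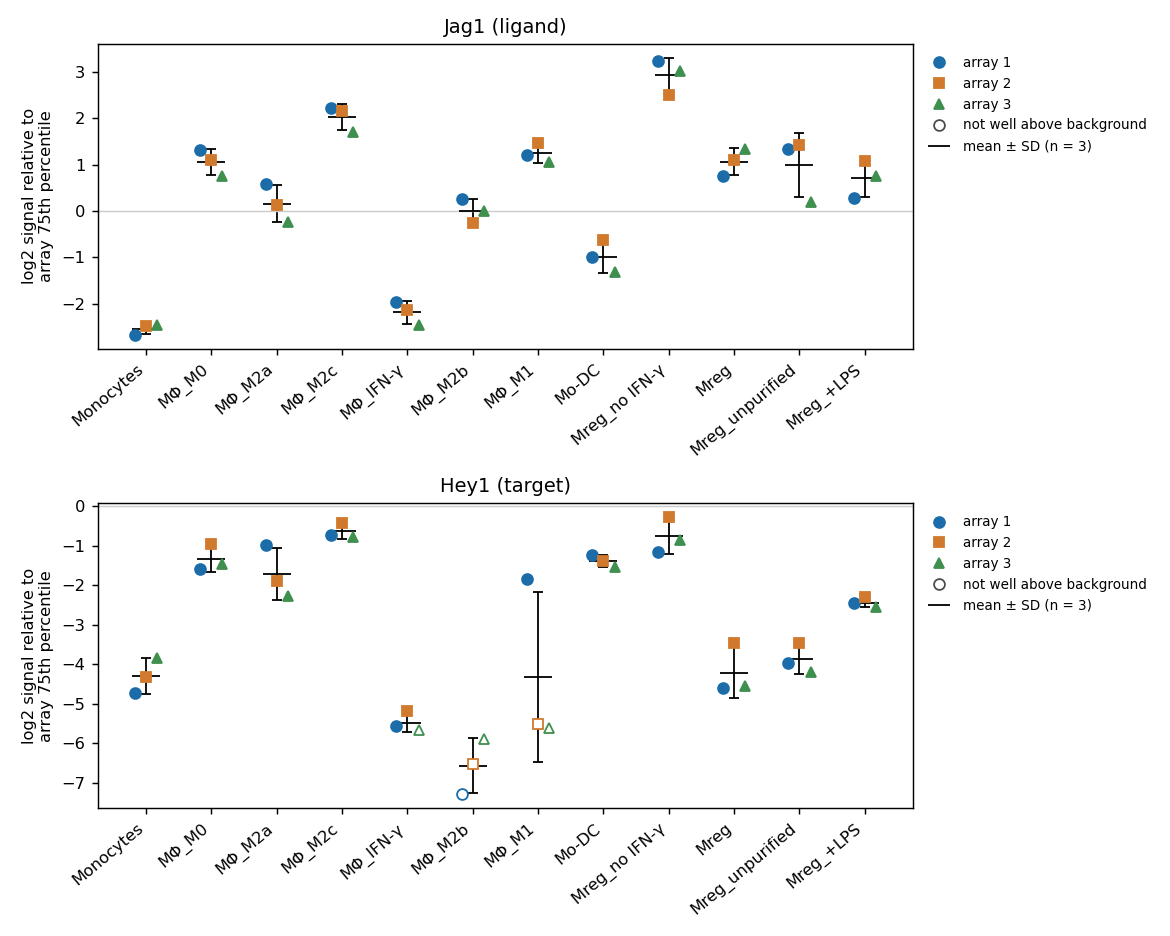
Jag1 (upper panel) and Hey1 (lower panel) on each array of the 12 groups, log2 signal relative to the array's 75th percentile, with the series number as the symbol, open symbols for arrays not well above background, and the mean ± SD of 3 arrays. Jag1 in MΦ_IFN-γ lies between -2.45 and -1.96 and in MΦ_M1 between 1.06 and 1.47; Hey1 in MΦ_M0 lies between -1.58 and -0.95 and in MΦ_IFN-γ between -5.66 and -5.19.

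Hey1, a target gene that codes for a repressor, was well above background on all 3 arrays of 9 groups. Its highest group was MΦ_M2c at -0.72, -0.42 and -0.77, whose range overlapped that of Mreg_no IFN-γ at -1.15, -0.27 and -0.85, followed by MΦ_M0 at -1.58, -0.95 and -1.46 and Mo-DC at -1.23, -1.38 and -1.55. IFN-γ lowered it in M-CSF macrophages to -5.57, -5.19 and -5.66, with 2 of these 3 arrays measured, a difference of -4.15 ± 0.59 (SE) or 17.7-fold (adjusted p = 5.2e-06). Mo-DC, which had received the same IFN-γ, exceeded MΦ_IFN-γ by 4.09 ± 0.59 or 17.1-fold (adjusted p = 2.1e-06). Culture raised Hey1 from -4.73, -4.32 and -3.83 in Monocytes to the MΦ_M0 level, by 2.96 ± 0.59 or 7.80-fold (adjusted p = 8.4e-05). With normexp these 3 differences kept their direction and passed the threshold at smaller sizes, -2.11, 2.00 and 1.59.

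Hey1 did not differ past the threshold with IL-4 (-0.38 ± 0.59, adjusted p = 0.77), dexamethasone (0.69 ± 0.59, adjusted p = 0.48) or between Mreg_no IFN-γ and MΦ_M0 (0.57 ± 0.59, adjusted p = 0.51). The arrays overlapped with IL-4 and in Mreg_no IFN-γ, but not with dexamethasone. The SE of Hey1 is pooled over all groups, among them MΦ_M1 with an SD of 2.15. Under immunoglobulin coating Hey1 was measured on no array. Under LPS in M-CSF macrophages 1 array decided the value: array 1 of MΦ_M1 read -1.85 and the other two, not well above background, -5.51 and -5.61, and the difference of 1.15 ± 0.59 missed the threshold (adjusted p = 0.11). Mreg_unpurified, at -3.98, -3.46 and -4.19, exceeded MΦ_IFN-γ by 1.60 ± 0.59 (adjusted p = 0.034), a call lost without array 1 or 3 of MΦ_IFN-γ (1.55 and 1.505) or array 1 or 2 of Mreg_unpurified (1.65 and 1.39), with adjusted p up to 0.12. It was also lost with normexp (0.605, adjusted p = 0.11), quantile normalization (1.405, adjusted p = 0.059) and the authors' deposited log2 values (1.42, adjusted p = 0.057).

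As a description, Hey1 in Mreg read -4.61, -3.47 and -4.55, a difference of -3.45 ± 0.59 or 10.9-fold from Mreg_no IFN-γ, and lower on each of the 3 slides, at -3.45, -3.20 and -3.70. With LPS the 3 arrays read -2.46, -2.30 and -2.55, 1.77 ± 0.59 above Mreg and higher on each slide, by 2.15, 1.17 and 2.00. With normexp these differences were -2.07 and 1.05. In the Mreg culture, Hey1 was thus higher with LPS on the arrays where Notch4 was lower.

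Hes1, the other target, was close to the limit of measurement. It was well above background on the 3 arrays of MΦ_M1 (-4.07, -4.08 and -4.63) and on 2 of the 3 of Monocytes (-5.63, -5.18 and -4.08), and on no other array, so on none of the 12 arrays of the Mreg culture. Hes1 passed the filter on dim probes only through MΦ_M1, so a test of MΦ_M1 as the brighter group cannot count as support. MΦ_M1 exceeded MΦ_IFN-γ by at least 2.71-fold (adjusted p = 2e-04). On these same arrays Dll1, not well above background anywhere, differed by 1.86 on the log2 scale in that direction when the filter was dropped, and with normexp the Hes1 difference was 0.70 (adjusted p = 0.12). Monocytes were called higher than MΦ_M0 (adjusted p = 1.6e-05), the mean of their 3 arrays, 2 of them measured, lying 1.61-fold above the limit of measurement on the MΦ_M0 arrays, and with normexp the difference was 0.03 the other way.

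**Figure D4:**
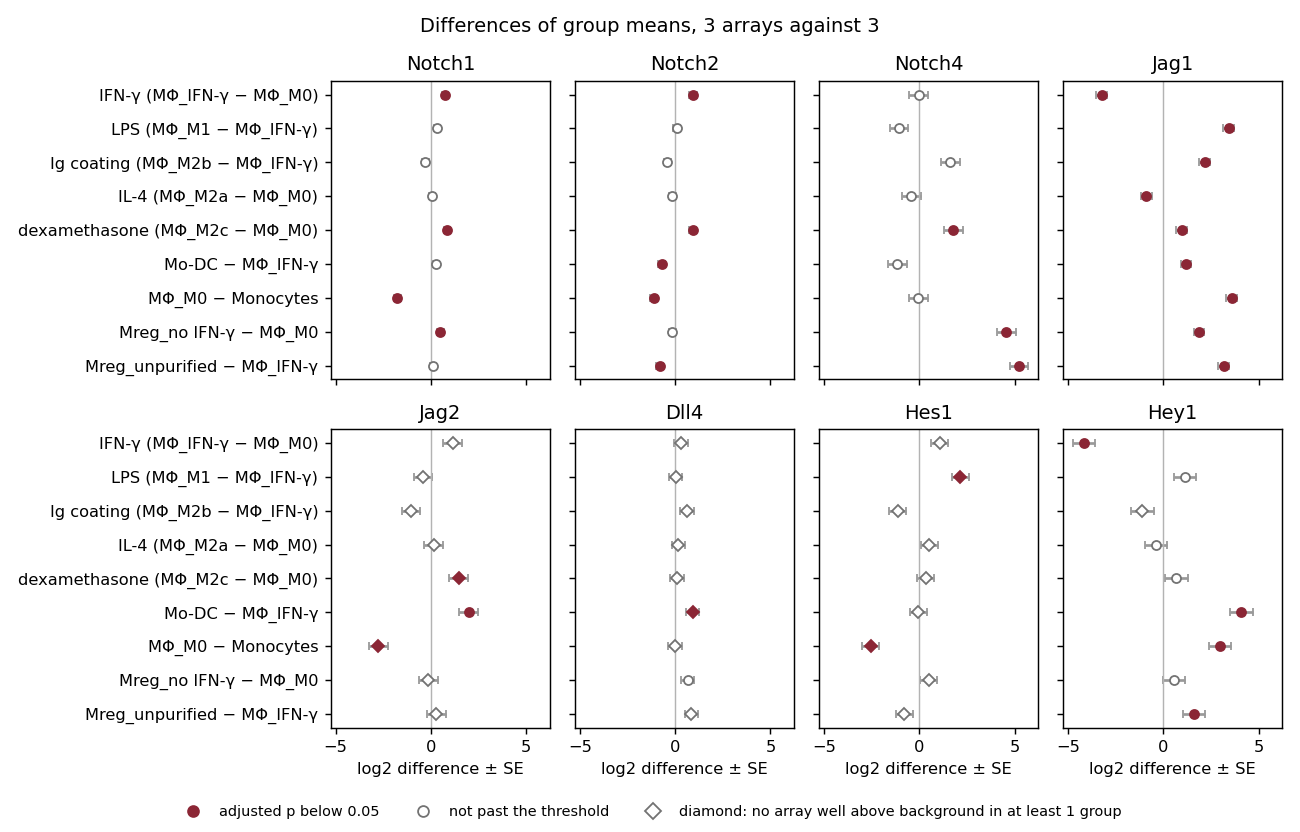
Differences of group means (horizontal axis, log2, with the SE of the fit over all 36 arrays) for the 8 tested members in the 9 tested comparisons, 3 arrays against 3; filled symbols passed an adjusted p of 0.05, and diamonds mark comparisons in which a group had no array well above background. Jag1 is filled in all 9, while Notch4 is filled for dexamethasone and for both Mreg culture groups, at 1.79, 4.58 and 5.23.

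Counted by comparison, the called members are read against the share of all genes called at the same threshold. IFN-γ in M-CSF macrophages called 4 of 8 members, Notch1 and Notch2 higher and Jag1 and Hey1 lower, where 22.2% of all genes were called, 11.0% higher and 11.1% lower. LPS on IFN-γ called 2, Jag1 and Hes1, both higher, against 51.2% (27.9% higher and 23.3% lower). Hes1 passed the filter on dim probes only through MΦ_M1, the brighter group of that comparison. Dexamethasone called 5, Notch1, Notch2, Notch4, Jag1 and Jag2, all higher, against 20.6% (9.93% higher and 10.7% lower), of which Notch4 and Jag2 were lost with normexp. IL-4 called 1, Jag1 lower, against 12.5% (6.75% higher and 5.79% lower), a share near the background. Immunoglobulin coating called 1, Jag1 higher, against 3.94% (2.16% higher and 1.78% lower).

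Mo-DC against MΦ_IFN-γ called 5, Jag1, Jag2, Dll4 and Hey1 higher and Notch2 lower, against 47.5% (22.4% higher and 25.1% lower); with the slide these arrays share as a block it called 7, Notch1 (0.26 ± 0.07, adjusted p = 0.0092) and Notch4 (-1.15 ± 0.19, adjusted p = 0.0013) joining. MΦ_M0 against Monocytes called 6, Jag1 and Hey1 higher and Notch1, Notch2, Jag2 and Hes1 lower, against 63.4% (30.2% higher and 33.2% lower), a share near the background. Mreg_no IFN-γ against MΦ_M0 called 3, Notch1, Notch4 and Jag1, all higher, against 30.9% (17.2% higher and 13.7% lower), also near the background. Of these, Notch1 was lost with normexp. Mreg_unpurified against MΦ_IFN-γ called 4, Notch4, Jag1 and Hey1 higher and Notch2 lower, against 38.1% (21.6% higher and 16.5% lower). The counts of both Mreg culture comparisons include Notch4, the gene by which the family was chosen. With 8 members such counts are coarse, and none was tested against the share of all genes. The median difference over the 8 members was 0.52 with IFN-γ (-0.01 over all genes), 0.19 with LPS (0.125), -0.06 with IL-4 (0.06), 0.88 with dexamethasone (0.02) and -0.36 with immunoglobulin coating (-0.004). It was 0.59 in Mo-DC against MΦ_IFN-γ (-0.04), -0.59 in MΦ_M0 against Monocytes (-0.08), 0.53 in Mreg_no IFN-γ against MΦ_M0 (0.06) and 0.56 in Mreg_unpurified against MΦ_IFN-γ (0.09). These medians include members under the limit of measurement, and members went both ways in several comparisons. The comparisons share arrays: MΦ_IFN-γ is the baseline of the LPS, immunoglobulin, Mo-DC and Mreg_unpurified comparisons, and MΦ_M0 that of the IFN-γ, IL-4, dexamethasone and Mreg_no IFN-γ comparisons.

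A wider list of 60 other Notch pathway genes, of which 54 were tested, was read in the same 9 comparisons. IFN-γ called 5 of them higher and 11 lower, 29.6% of the list where 22.2% of all genes were called. LPS called 18 and 17 (64.8% against 51.2%), IL-4 5 and 2 (13% against 12.5%), dexamethasone 9 and 6 (27.8% against 20.6%), and immunoglobulin coating 3 and none (5.56% against 3.94%). Mo-DC against MΦ_IFN-γ called 15 higher and 18 lower (61.1% against 47.5%), MΦ_M0 against Monocytes 21 and 19 (74.1% against 63.4%), Mreg_no IFN-γ against MΦ_M0 10 and 7 (31.5% against 30.9%), and Mreg_unpurified against MΦ_IFN-γ 12 and 16 (51.9% against 38.1%). The list is described by these shares, without a test of it. The median difference of the 54 genes stayed between -0.14 and 0.12 in all 9, and that of all genes between -0.08 and 0.125.

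Rbpj, which codes for the DNA-binding factor shared by all Notch receptors, was called in 7 of the 9. In MΦ_M0 it lay between 2.57 and 2.96 and in MΦ_IFN-γ between 0.94 and 1.08, a difference of -1.76 ± 0.19 with IFN-γ (SE; 3.39-fold, adjusted p = 8.7e-08). LPS raised it by 2.32 ± 0.19 or 5.00-fold over MΦ_IFN-γ (adjusted p = 1.2e-10), and immunoglobulin coating by 1.27 ± 0.19 (adjusted p = 0.00024). Mo-DC exceeded MΦ_IFN-γ by 2.21 ± 0.19 (adjusted p = 4.2e-10). With dexamethasone Rbpj differed by -1.21 ± 0.19 (adjusted p = 4.6e-05).

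Of the receptor glycosylation genes, Mfng, a Fringe enzyme that adds a sugar to the receptors' extracellular part, was high in the Mreg culture. It lay between 1.66 and 1.81 in Mreg_no IFN-γ and between -2.08 and -1.54 in MΦ_M0, a difference of 3.60 ± 0.46 or 12.2-fold (adjusted p = 1e-06). Mreg_unpurified, between 0.29 and 1.52, exceeded MΦ_IFN-γ by 3.19 ± 0.46 or 9.14-fold (adjusted p = 4.9e-06). Monocytes held a like level, 1.68 to 1.94, and the difference after culture to MΦ_M0 was -3.65 ± 0.46 (adjusted p = 9.8e-08). As a description, Mfng lay between 0.39 and 1.79 in Mreg and between -0.62 and -0.35 in Mreg_+LPS. Lfng, another Fringe enzyme, went the other way, with -1.49 ± 0.34 in Mreg_no IFN-γ against MΦ_M0 (adjusted p = 0.0014) and -1.27 ± 0.34 in Mreg_unpurified against MΦ_IFN-γ (adjusted p = 0.0047). Both enzymes were lower with LPS in M-CSF macrophages, Mfng at -1.77 ± 0.46 (adjusted p = 0.0021) and Lfng at -2.09 ± 0.34 (adjusted p = 1.2e-05).

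**Figure D5:**
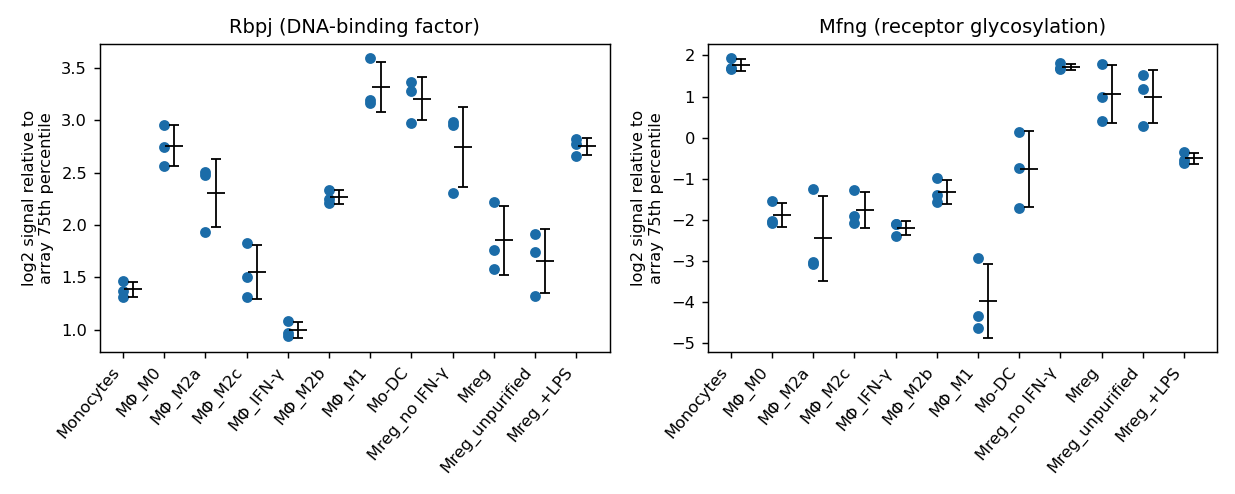
Rbpj (left) and Mfng (right) in the 12 groups, log2 signal relative to the array's 75th percentile, with the 3 arrays as points and the mean ± SD beside them. Rbpj in MΦ_IFN-γ lies between 0.94 and 1.08, below MΦ_M0 and MΦ_M1, and Mfng lies above 0 in Monocytes, Mreg_no IFN-γ, Mreg and Mreg_unpurified.

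Among the proteases, Aph1b and Aph1c, subunits of γ-secretase with closely related sequences whose signals may not be separable, were 1.99 ± 0.23 and 3.13 ± 0.30 higher in MΦ_M0 than in Monocytes (adjusted p = 1.6e-08 and 7.6e-10). With IFN-γ both were lower, at -1.42 ± 0.23 and -2.10 ± 0.30 (adjusted p = 2.6e-05 and 6.3e-06). Furin, which cuts the receptors as they mature, was 1.74 ± 0.17 higher in Mo-DC than in MΦ_IFN-γ (adjusted p = 3.9e-09). Neurl1a, a ubiquitin ligase of the ligands, was at least 11.5-fold higher in MΦ_M0 than in Monocytes (adjusted p = 3.2e-11) and differed by -2.01 ± 0.40 with IFN-γ (adjusted p = 0.0004).

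Of the genes that act on receptor turnover, Dtx4, a Deltex ubiquitin ligase, was 1.51 ± 0.16 higher in Mreg_no IFN-γ than in MΦ_M0 (adjusted p = 7.3e-08), 1.03 ± 0.16 higher in Mreg_unpurified than in MΦ_IFN-γ (adjusted p = 1.6e-05) and differed by -1.47 ± 0.16 with IFN-γ (adjusted p = 9.7e-08). Nedd4, another ubiquitin ligase, differed by -6.42 ± 0.53 between MΦ_M0 and Monocytes (86.0-fold, adjusted p = 3.8e-11) and was 5.61 ± 0.53 higher in Mo-DC than in MΦ_IFN-γ (adjusted p = 1.9e-09). Dtx1 was measured on all 3 arrays of Monocytes and none of MΦ_M0, at least 2.25-fold higher (adjusted p = 1.4e-09). With IL-4 it was measured on 2 of 3 MΦ_M2a arrays, whose mean over all 3 lay 1.59-fold above the limit of measurement on the MΦ_M0 arrays (adjusted p = 1.3e-06). Hes5, a target like Hes1, was likewise measured on all 3 Monocytes arrays and no MΦ_M0 array, at least 5.57-fold higher (adjusted p = 0.00015).

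Other targets are shared with many pathways. Myc, a growth regulator, differed by -5.44 ± 0.26 with LPS on IFN-γ in M-CSF macrophages (43.4-fold, adjusted p = 6.9e-15), and Ccnd1, cyclin D1, by -1.75 ± 0.25 (adjusted p = 1.7e-06). Ccnd1 was 6.58 ± 0.25 higher in MΦ_M0 than in uncultured Monocytes (95.9-fold, adjusted p = 5.1e-18). Among coactivators, Maml2 was 2.72 ± 0.19 higher in MΦ_M0 than in Monocytes (adjusted p = 8.7e-13) and 1.53 ± 0.19 higher with dexamethasone (adjusted p = 9.4e-07). Of the Groucho family corepressors, Tle3 differed by 1.99 ± 0.15 and Tle1 by -2.30 ± 0.21 between Mo-DC and MΦ_IFN-γ (adjusted p = 5e-11 and 1.2e-09).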

How the data were processed

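RNA of 36 samples was hybridised to single-colour Agilent arrays. The deposited scanner files hold spot intensity values that the Feature Extraction software had subtracted of background and detrended, per the file headers. The table of log2 values deposited by the authors was used to check the arrays (Pearson r of 0.997 to 1 per array) and as an alternative.

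From the intensities, log2 values minus each array's 75th percentile were computed, spots of a probe were averaged, and 26478 probes passed a filter (called well above background by the software on 3 or more arrays), of which the brightest stood for its gene. A limma 3.58.1 fit (R 4.3.3) with 1 mean per group over all 36 arrays gave differences, with p-values adjusted by Benjamini-Hochberg over about 17605 genes and a threshold of 0.05. All adjusted p-values in the text are from this fit or the named alternative. Where no array of a group was measured, the brighter group's mean was set against the limit of measurement, the mean of the lowest signal well above background on each array of the dimmer group, and called a bound ("at least") where all 3 brighter arrays were measured. The fit was tested on simulated data.

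The arrays lie on 9 slides of 4 and were scanned on 2 days, with number 1 of each group on a day of its own. Same-numbered arrays deviated together (pair correlations of deviations from group means over 0.1) in 7 of 14 comparisons. Probe positions are mm8, per the file headers. The number of arrays limits the precision.

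The members, lists and tests were chosen with earlier results of these data known. All members are named. Of 60 other pathway genes in 8 lists by role, examples come from up to 2 per list and comparison past the threshold with the largest differences of at least 1. Alternatives were the normexp correction, quantile normalization, the authors' log2 values, other filters, every probe, the mean of a gene's probes, only the compared groups, slide and number blocks, leaving out each array and, added after seeing the data, a single scan day.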

Additional observations from a re-analysis of the deposited data

Results flagged for a closer look

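Both genes given here were flagged because their differences with LPS differed between the M-CSF and the Mreg culture. Their opposite signs are therefore no independent result. The signs were opposite in every pair of same-numbered arrays, the smallest difference being -0.02 for Jag1 in the Mreg culture. Jag1 differed by 3.425 in M-CSF macrophages (3.17, 3.60 and 3.51 by series number) and by -0.354 in the Mreg culture (-0.48, -0.02 and -0.57), where the groups overlapped. Notch1 differed by 0.305 (0.19, 0.30 and 0.41) in the first, which missed the threshold (adjusted p = 0.13), and by -0.485 (-0.33, -0.82 and -0.30) in the second. The difference between the cultures was not tested in either gene, because Mreg arrays served to choose the family.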

How the results depend on the processing

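Of 402 counts and Notch4 differences recomputed under the alternatives, 363 stayed within 1.5 times (a count) or 1 SD between replicates (a difference), and of 1135 values of single genes 1066 stayed on their side of the threshold or, without a test, within 1 SD. The sign changed in 3 called values of single genes, in 18 values of single genes that were not called or have no test, and in 6 Notch4 differences given without a test. The 3 called ones came with the normexp correction: Jag2 with dexamethasone (-0.498), and Jag2 (0.091) and Hes1 (0.027) in MΦ_M0 against Monocytes. With 1 array left out, Notch4 ranged from -0.79 to 0.448 in Mreg against Mreg_no IFN-γ and from -0.232 to 0.264 in Mreg_+LPS against MΦ_M1. It kept its sign with LPS in Mreg (-6.063 to -5.035) and in Mreg against MΦ_IFN-γ (4.026 to 5.054). Normexp gave 0 members for IL-4, 3 for dexamethasone and 3 for Mo-DC, 272 genes for immunoglobulin coating (694 in the fit as reported), 3092 for Mreg_no IFN-γ (5439) and 4314 for Mreg_unpurified (6709), with Notch4 at 3.182 in Mreg against MΦ_IFN-γ and -2.954 with LPS in Mreg. No filter gave 13875 genes for LPS in M-CSF macrophages (9013) and 0 members for IL-4. A filter of 18 arrays gave 1 member for LPS, 2 for immunoglobulin coating and 3 for Mo-DC, with fewer members tested. Every probe tested on its own gave 16903 calls in MΦ_M0 against Monocytes (11164).

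With the series number as a replicate block, immunoglobulin coating called 1103 genes and 2 members, Notch4 joining at an adjusted p of 0.025; as given in the report, Notch4 with LPS in M-CSF macrophages also passed. In comparisons whose numbers do not pair by that check, the block brought Notch4 in Mo-DC (adjusted p = 0.029) and Dll4 in Mreg_unpurified (0.015) past the threshold; it changed no other call of a member. With slide as a random block immunoglobulin coating called 1297 genes and 2 members, with slide as a fixed block 1821 and 4 (Notch1, Notch2, Notch4 and Jag1), and with only the 2 compared groups 425 and 2. The IL-4 comparison with only its 2 groups called 1465 genes (2209) and 0 members. Arrays of a single scan day gave 958 genes and 0 members for IL-4, 3 members for dexamethasone and 341 genes for immunoglobulin coating. Leaving out 1 array at a time gave 245 to 664 genes for immunoglobulin coating, 1309 to 2151 genes and 0 to 1 members for IL-4, and 3 to 5 members for dexamethasone. Where not stated, the cause was not tested. Signal over background limits Jag2, Dll4, Hes1, Notch3 and Dll1.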
